A study of Mus musculus with 6 samples.

Results

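The genes described here encode 9 RNA-binding proteins that set how long cytokine messenger RNAs last in macrophages. They are Zfp36, Zfp36l1 and Zfp36l2 (the tristetraprolin or TTP family), Zc3h12a and Zc3h12c (the Regnase family), Rc3h1 and Rc3h2 (the Roquins), Elavl1 (HuR) and Hnrnpd (AUF1). They were taken by gene symbol from a deposited table of 56748 mouse genes, which held a row for each of the 9, and all 9 reached the mean level needed for testing, as did 10898 genes in all. RNA was sequenced from RAW264.7 cells, a mouse macrophage-like line, infected with lentiviruses that carried either Fbxw11 together with GFP (pMSCV-Fbxw11-pGk-GFP, 3 libraries) or a control vector (3 libraries, named for GFP). Both groups were grown in the same serum-supplemented medium and were sorted before RNA extraction. The labels do not give the gate of the sort, do not say whether the cells were clones or separate transductions, and name no stimulus. The p-values given therefore cover the variation among these 6 libraries, and that variation may be only technical.

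Many cytokine transcripts are short-lived because their 3′ untranslated regions (3′ UTRs) carry AU-rich elements or small stem-loops. Proteins of the TTP family bind AU-rich elements and recruit the CCR4-NOT deadenylase, Regnases cut stem-loop RNA as endonucleases, and Roquins bind stem-loops and also recruit CCR4-NOT. HuR competes for AU-rich sites and stabilises the RNA, while AUF1 acts in either direction depending on its isoform. These factors are themselves controlled by signalling: the p38 and MK2 kinases phosphorylate TTP, the protease MALT1 cleaves Regnase-1 and the Roquins, and IKK phosphorylates Regnase-1, which is then bound by β-TrCP and degraded. Fbxw11 encodes one of the β-TrCP proteins, the part of a ubiquitin ligase that picks out phosphorylated substrates. The table holds transcript levels only, and no protein was measured.

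The AU-rich sites behind these names are shown because they are what the TTP family, HuR and AUF1 recognise, and because 6 of the 9 factors carry one in their own transcript. Each line gives 30 bases of a 3′ UTR in sense orientation, from GENCODE M21 transcripts on GRCm38, with the nonamer TTATTTATT, the site TTP prefers, in capitals. Overlapping copies were counted.
Tnf: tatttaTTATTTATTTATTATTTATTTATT
Csf2: tttaaatatTTATTTATTTATTTATTTATT
Cxcl2: atttatctatgtatTTATTTATTTATTaat
Zfp36: atttatgacgactTTATTTATTgtattaag
Zfp36l1: aaactgttggaTTATTTATTttagaaattc
Zfp36l2: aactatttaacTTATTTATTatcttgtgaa
Rc3h1: atttatactttactcaTTATTTATTgagat
Elavl1: tatTTATTTATTTATTTATTtTTATTTATT
The first 3 belong to cytokine and chemokine transcripts, and the Tnf and Csf2 windows hold 4 overlapping nonamers each. They lie at chr17:35199677-35199706 (Tnf, minus strand), chr11:54247327-54247356 (Csf2, minus strand) and chr5:90905332-90905361 (Cxcl2, plus strand). Among the factors, Elavl1 had 8 nonamers in its 3′ UTR, 4 of them in the window at chr8:4285776-4285805 (minus strand). Zfp36 (chr7:28376953-28376982, minus strand), Zfp36l1 (chr12:80108167-80108196, minus strand), Zfp36l2 (chr17:84184914-84184943, minus strand), Rc3h1 (chr1:160970037-160970066, plus strand) and Rc3h2 had 1 each, and Zc3h12a, Zc3h12c and Hnrnpd had 0. Of 9475 tested genes with a 3′ UTR in the annotation, 7.08% held at least 1 nonamer, 1.47% at least 2, and 4 genes held 8 or more. Long 3′ UTRs hold such sites more often: the median length was 934 bases over those genes and 2102 bases among those with a nonamer. The factors ranged from 774 bases (Zfp36) to 7181 bases (Rc3h1). A match is a run of letters and no measure of binding.

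The libraries held between 16191971 and 18951653 reads, recovered from the table as described under the processing. Fbxw11 itself stood at 36.1 ± 0.409 FPKM (fragments per kilobase of gene length, scaled to library size) in the control libraries and 271 ± 2.74 FPKM in the Fbxw11 libraries (SD, n = 3 each, 7.51-fold, limma adjusted p = 8.54e-08). Reads from the vector and from the cells' own gene could not be told apart. Over all genes, 501 of 10898 (4.6%) rose and 506 (4.64%) fell at a limma adjusted p under 0.05, 9.24% together. Rises made up 49.8% of these calls, 48.1% with median-ratio scaling (484 rose and 523 fell) and 32.8% on the TPM scale (348 rose and 712 fell). With voom on recovered reads, which changes the input and the variance model too, 520 rose and 1039 fell (33.4% rises). Of 10 macrophage markers 9 were tested, Mertk being listed at 0 in every control library, and 4 rose, against 2 in 11 of 15 alternatives. Of 18 markers of other cell types 14 never reached 1 FPKM, 6 of which (Cd8a, Krt18, Ly6g, Mpo, Ncr1 and Siglech) were at 0 in each library, and the other 4, among them the endothelial gene Pecam1, stood at up to 2.58 FPKM. Their summed level was 5.82 to 6.46 FPKM in control and 4.58 to 5.92 FPKM in Fbxw11 libraries. Of 15 cell cycle genes 13 fell, and their summed level was 422 to 439 FPKM in control and 293 to 302 FPKM in Fbxw11 libraries, a shift that moves with the groups and whose part in the results below was not tested. Control library 3 and Fbxw11 library 3 stood apart from the other 4 on the second principal component (23.7% of the variance), and fits without them are given where they matter.

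Zfp36 and Zfp36l1 rose in the Fbxw11 libraries and Rc3h1 fell, by less than 1.3-fold in each case, while the other 6 factors did not pass the test. All 3 calls were close to the threshold, and 0 factors passed without the filter on low values, where more genes are tested. These were 2 rises and 1 fall among 9 genes, against 4.6% and 4.64% of all tested genes. The groups did not overlap for 6 of the 9, of which 4 were higher and 2 lower in Fbxw11 libraries, against 31.1% of all tested genes (15.6% higher and 15.5% lower). The median log2 fold change of the 9 was -0.01, and 0.003 over all tested genes. The median absolute log2 fold change was 0.15 over the factors and 0.09 over all tested genes. In RNA pooled from many sorted cells, fewer cells that express a gene and less RNA per cell cannot be told apart.

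**Figure D1:**
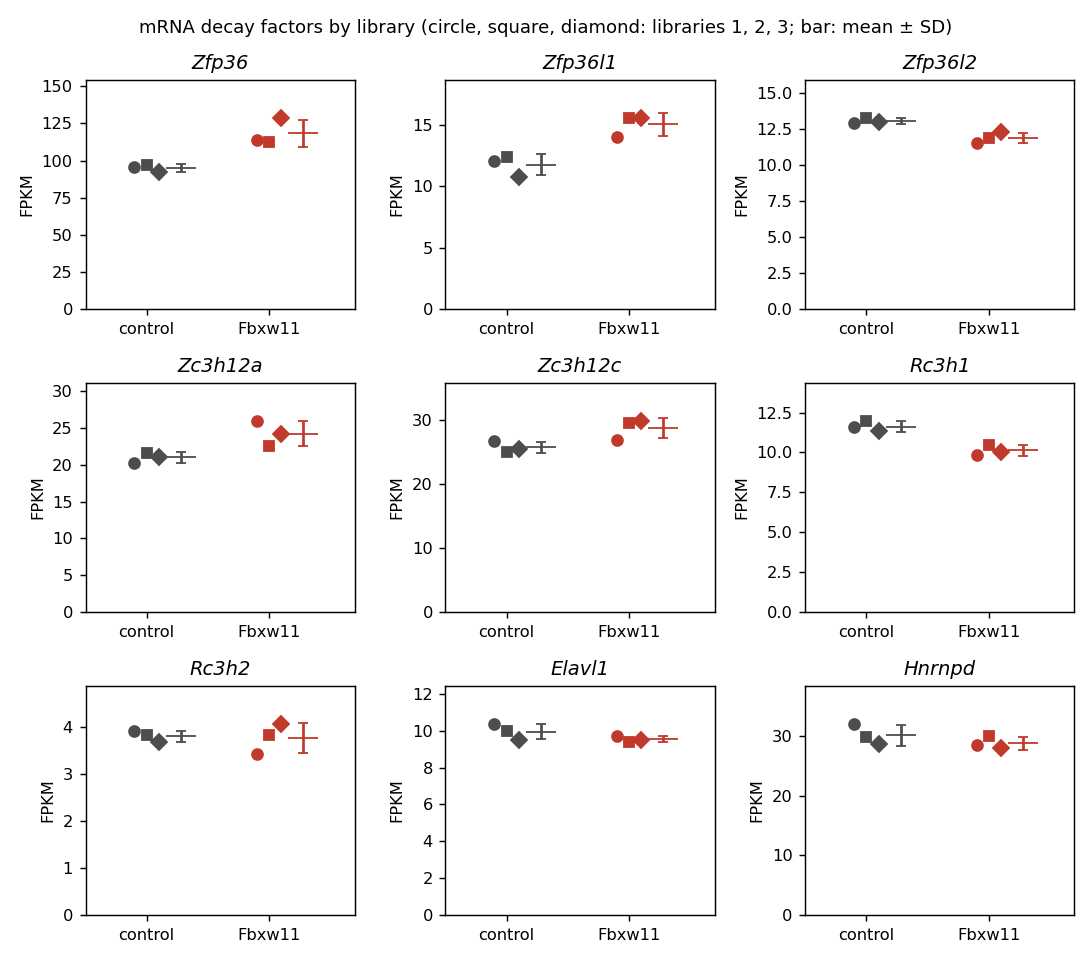
FPKM of each of the 9 factors in the 3 control and 3 Fbxw11 libraries, each panel with an axis from 0; symbols mark libraries 1, 2 and 3, and the bar is the mean with its SD. The groups are apart for Zfp36, Zfp36l1, Zfp36l2, Zc3h12a, Zc3h12c and Rc3h1 and overlap for Rc3h2, Elavl1 and Hnrnpd.

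Zfp36 encodes TTP, the founding member of its family, an immediate early protein that shortens the life of Tnf and Csf2 transcripts among others. It stood at 95.4, 97.1 and 92.2 FPKM in control libraries 1 to 3 and at 114, 112 and 129 FPKM in Fbxw11 libraries 1 to 3. Every Fbxw11 library was above every control library, and Fbxw11 library 3 was the highest. Zfp36 rose from 94.9 ± 2.50 to 118 ± 9.06 FPKM (SD, n = 3), a 1.25-fold difference (log2 fold change 0.31, SE 0.058, limma adjusted p = 0.0218), with 5424 to 7608 reads per library behind it. The call was lost without control library 1, 2 or 3 (adjusted p = 0.0793, 0.0702 and 0.0620) and without Fbxw11 library 1 (0.0514), but not without the highest library, Fbxw11 library 3 (log2 fold change 0.25, adjusted p = 0.0198), nor without library 3 of both groups (0.0278). Without the filter on low values the adjusted p was 0.067.

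Zfp36l1 encodes a second member of the TTP family with the same tandem zinc finger fold. Its levels were 12.1, 12.4 and 10.8 FPKM in control libraries 1 to 3 and 14.005, 15.57 and 15.58 FPKM in Fbxw11 libraries 1 to 3. The groups did not overlap, and control library 3 was the lowest. Zfp36l1 rose from 11.8 ± 0.844 to 15.1 ± 0.907 FPKM, a 1.28-fold difference (log2 fold change 0.33, SE 0.065, limma adjusted p = 0.0269), on 548 to 831 reads per library. Of 6 fits that each left out 1 library, only that without Fbxw11 library 1 kept the call (adjusted p = 0.0379). The others, without control library 1, 2 or 3 or Fbxw11 library 2 or 3, gave adjusted p between 0.0536 and 0.0962. Without library 3 of both groups the log2 fold change was 0.25 (adjusted p = 0.0855), and without the filter on low values the adjusted p was 0.0776.

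Zfp36l2, the third member of the family in macrophages, lay the other way. It stood at 12.9, 13.3 and 13.0 FPKM in the control libraries and at 11.5, 11.9 and 12.3 FPKM in the Fbxw11 libraries. All 3 Fbxw11 values lay below all 3 control values, but the difference did not pass (13.0 ± 0.199 and 11.9 ± 0.361 FPKM, log2 fold change -0.12, SE 0.037, limma adjusted p = 0.0967). On the TPM scale it did (log2 fold change -0.17, limma adjusted p = 0.0387), but that scale also lowered the median over all tested genes, from 0.003 to -0.0382.

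The order of the 2 smaller family members was therefore turned between the groups. The ratio of Zfp36l1 to Zfp36l2 within a library, which no scaling between libraries can move, was 0.938, 0.935 and 0.834 in the control libraries and 1.21, 1.31 and 1.27 in the Fbxw11 libraries. Zfp36l2 was the more abundant of the pair in each control library and Zfp36l1 in each Fbxw11 library. Zfp36 made up 79.3% ± 0.203 of the summed FPKM of the 3 in control and 81.4% ± 0.949 in Fbxw11 libraries. The pairs compared in this way were chosen after the values were seen and were not tested. Not all computed ratios were higher in Fbxw11 libraries. Zc3h12a over Zc3h12c overlapped between the groups (mean 0.818 in control and 0.846 in Fbxw11 libraries). Rc3h1 over Rc3h2 was lower in Fbxw11 libraries (mean 3.05 in control and 2.69 in Fbxw11 libraries).

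**Figure D2:**
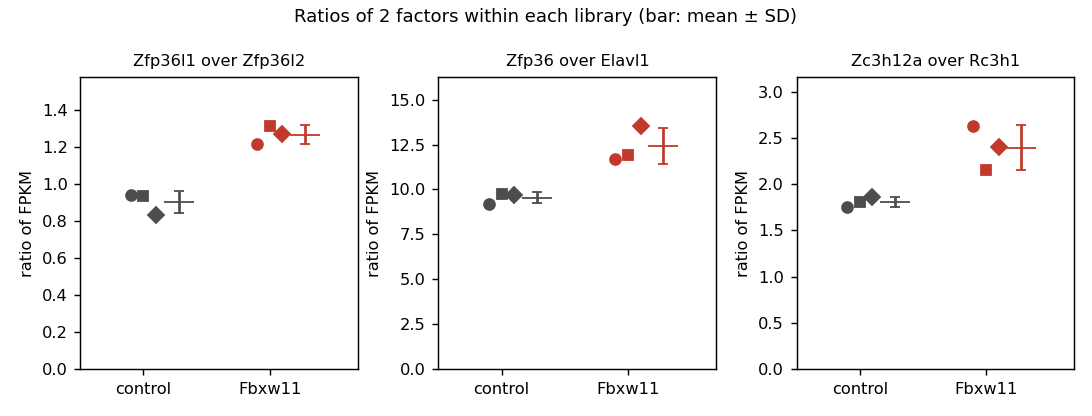
Ratio of the FPKM of 2 factors within each library, for Zfp36l1 over Zfp36l2, Zfp36 over Elavl1 and Zc3h12a over Rc3h1, with symbols for libraries 1, 2 and 3 and the mean with its SD. Each ratio is higher in every Fbxw11 library than in every control library, and the first crosses 1.

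Both Regnase genes lay higher in the Fbxw11 libraries without passing the test. Zc3h12a encodes Regnase-1, the endonuclease that cleaves Il6 and Il12b transcripts and, in mice, its own. It stood at 20.3, 21.6 and 21.1 FPKM in the control libraries and at 25.9, 22.6 and 24.1 FPKM in the Fbxw11 libraries. The groups did not overlap, and Fbxw11 library 2 lay closest to the control libraries. The means were 20.98 ± 0.696 and 24.2 ± 1.69 FPKM (log2 fold change 0.20, SE 0.056, limma adjusted p = 0.0845), and the adjusted p ranged from 0.0644 to 0.225 over 15 alternatives.

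Zc3h12c, which encodes Regnase-3, a relative of Regnase-1 abundant in myeloid cells, stood at 26.6, 25.0 and 25.4 FPKM in the control libraries and at 26.9, 29.5 and 29.8 FPKM in the Fbxw11 libraries. Fbxw11 library 1 lay just above the highest control library. The means were 25.7 ± 0.829 and 28.7 ± 1.59 FPKM (log2 fold change 0.15, SE 0.049, limma adjusted p = 0.112). The summed FPKM of the 2 Regnase genes was 46.5 to 46.9 in control and 52.0 to 54.0 in Fbxw11 libraries. The other family members Zc3h12b and Zc3h12d, named after their values were seen, averaged 0.0417 and 0.215 FPKM in control libraries and were not tested.

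Of the Roquin genes, Rc3h1 fell and Rc3h2 did not pass. Rc3h1 encodes Roquin-1, which binds stem-loops in Tnf, Icos and other transcripts. It stood at 11.6, 12.0 and 11.3 FPKM in the control libraries and at 9.86, 10.5 and 10.0 FPKM in the Fbxw11 libraries, and the groups did not overlap. Rc3h1 fell from 11.6 ± 0.333 to 10.1 ± 0.326 FPKM, a 1.15-fold difference (log2 fold change -0.18, SE 0.041, limma adjusted p = 0.0408). The call was lost in each of the 6 fits that left out 1 library, control or Fbxw11 (adjusted p = 0.0676 to 0.147). It was also lost without the filter on low values (0.0782), without the variance trend (0.0546) and without library 3 of both groups (0.106). The call was stronger with voom on recovered reads (log2 fold change -0.24, adjusted p = 0.00239), where the median over all tested genes was also lower, at -0.0339.

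Rc3h2 encodes Roquin-2, which overlaps with Roquin-1 in function. Its levels were 3.91, 3.84 and 3.68 FPKM in the control libraries and 3.44, 3.83 and 4.07 FPKM in the Fbxw11 libraries. The lowest and the highest of the 6 values were both Fbxw11 libraries. The log2 fold change was -0.01 (SE 0.063, limma adjusted p = 0.935), and its sign turned without control library 1 or Fbxw11 library 1. Within a library, Zc3h12a stood at 1.75, 1.81 and 1.86 times the level of Rc3h1 in control and at 2.63, 2.15 and 2.40 times in Fbxw11 libraries.

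Elavl1 and Hnrnpd, whose products HuR and AUF1 bind the same AU-rich sites as TTP, did not pass. Elavl1 stood at 10.4, 9.97 and 9.52 FPKM in the control libraries and at 9.72, 9.39 and 9.50 FPKM in the Fbxw11 libraries. The groups overlapped, and the log2 fold change was -0.06 (SE 0.043, limma adjusted p = 0.477). Hnrnpd stood at 32.12, 29.85 and 28.67 FPKM in the control libraries and at 28.53, 29.99 and 27.97 FPKM in the Fbxw11 libraries, which also overlapped (log2 fold change -0.06, SE 0.051, limma adjusted p = 0.495). The table gives 1 value per gene, so the AUF1 isoforms were not told apart. Zfp36 stood at 9.19, 9.74 and 9.68 times Elavl1 in the control libraries and at 11.7, 11.9 and 13.5 times in the Fbxw11 libraries. The neuronal relatives Elavl2, Elavl3 and Elavl4, named after their values were seen, averaged at most 0.0496 FPKM in either group, and Elavl2 was listed at 0 in each library.

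**Figure D3:**
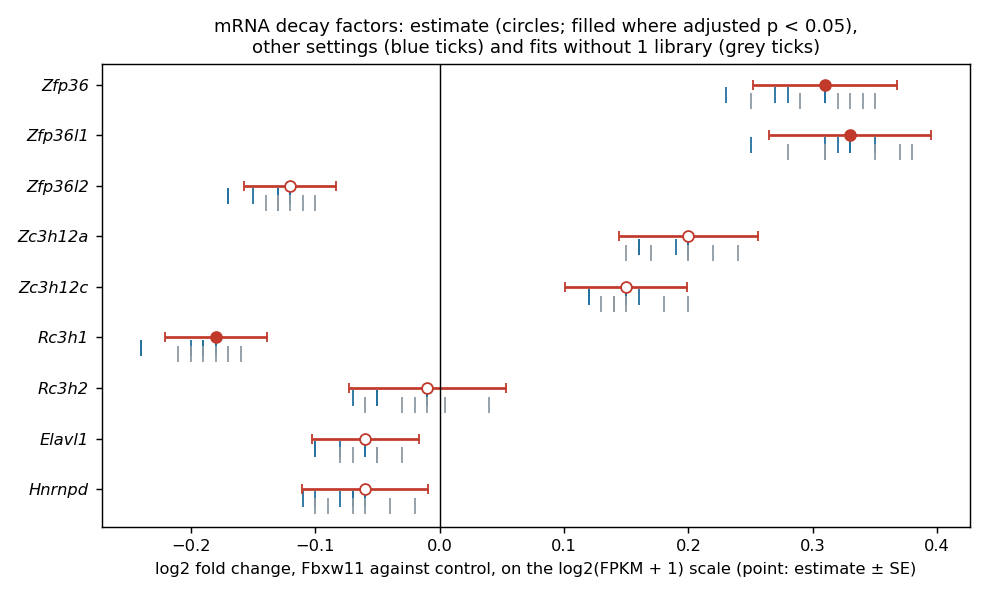
Change of each factor as a difference in log2(FPKM + 1), Fbxw11 minus control, as a circle with its SE and filled where the adjusted p is under 0.05; blue ticks are other settings and grey ticks are fits without 1 library. The ticks of Rc3h2 alone lie on both sides of 0.

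Ordered by FPKM, a level per gene length, the factors ran in control libraries from Zfp36 (94.9) through Hnrnpd (30.2), Zc3h12c (25.7), Zc3h12a (20.98), Zfp36l2 (13.0), Zfp36l1 (11.8), Rc3h1 (11.6) and Elavl1 (9.96) to Rc3h2 (3.81). Neighbours in this order did not overlap over the 3 libraries, except Zfp36l1 and Rc3h1. In Fbxw11 libraries the order was the same but for Zfp36l1 above Zfp36l2, and the overlapping neighbours were Hnrnpd and Zc3h12c. The order rests on the gene length in the table, and so do the multiples and shares of 1 factor against another given above. That length is 2.19 times the longest GENCODE coding transcript for Rc3h2, 1.80 times for Elavl1 and 1.24 times for Zfp36, whose length in the table (3470 bases) equals its whole span, and 1.0 to 1.08 times for the other 6. Per longest transcript, control levels would be 8.36 for Rc3h2, 18.0 for Elavl1 and 118 for Zfp36, which would place Elavl1 above Zfp36l2. Such a change of length does not touch the ratio of a gene's group means. It could shift the fit on log2(FPKM + 1) and what passes a filter on FPKM, which was not tested.

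The promoters of Zfp36 and Zfp36l1 are shown because these were the 2 factors that rose. They are RefSeq sequences on GRCm38.p6, from 250 bases before to 50 bases after the annotated start, and 8 of the 9 factors had an entry.
Zfp36: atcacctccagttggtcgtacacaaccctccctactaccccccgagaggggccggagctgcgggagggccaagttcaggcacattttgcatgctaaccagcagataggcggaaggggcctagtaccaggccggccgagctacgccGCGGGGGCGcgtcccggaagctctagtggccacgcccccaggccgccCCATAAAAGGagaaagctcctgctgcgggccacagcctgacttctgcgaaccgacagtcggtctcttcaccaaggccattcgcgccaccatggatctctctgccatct
Zfp36l1: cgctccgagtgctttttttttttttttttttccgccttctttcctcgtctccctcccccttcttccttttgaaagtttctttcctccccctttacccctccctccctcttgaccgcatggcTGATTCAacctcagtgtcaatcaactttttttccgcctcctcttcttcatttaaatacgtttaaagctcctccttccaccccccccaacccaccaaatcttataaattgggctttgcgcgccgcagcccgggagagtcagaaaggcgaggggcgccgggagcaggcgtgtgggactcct
Capitals mark matches, on either strand, to 5 motifs: the serum response CArG box and the NF-kB site (both by name), EGR1 (GCGGGGGCG), AP-1 (TGANTCA) and the cyclic AMP response element (TGACGTCA). The Zfp36 promoter (chr7:28379179-28379478, minus strand) held a CArG box starting at -58 and an EGR1 match at -105 from the start, which do not overlap. The Zfp36l1 promoter (chr12:80112964-80113263, minus strand) held an AP-1 match at -129. Over 32851 mouse promoters of this length, 1.63% held the CArG box, 2.91% the EGR1 motif, 7.81% the AP-1 motif, 8.46% the NF-kB motif and 1.79% the cyclic AMP response element. Among the other factors, Rc3h1, which fell, held an AP-1 match at -133, Hnrnpd, which did not pass, held a CArG box at 1, and Zc3h12c, which did not pass, held an NF-kB match at -236. The motifs were chosen after the data were seen, and the matches only describe these windows.

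The decay machinery downstream of the factors was described by 3 lists, beside one of other RNA-binding proteins. Of all 10898 tested genes, 9.24% were called and 2680 had an unadjusted p under 0.05. Of 18 deadenylation genes (CCR4-NOT, PAN and TOB or BTG adaptors) 0 passed the limma test, with 6 at an unadjusted p under 0.05 and 3 called by voom on recovered reads. The most abundant were the CCR4-NOT adaptor gene Btg1, at 152 ± 1.28 and 162 ± 10.7 FPKM in control and Fbxw11 libraries (adjusted p = 0.305), and the CCR4-NOT subunit gene Cnot9, at 38.8 ± 0.457 and 35.3 ± 1.63 FPKM (adjusted p = 0.0984). Cnot9 passed as lower on the TPM scale, with voom and without Fbxw11 library 3 (limma adjusted p = 0.042, 0.0153 and 0.0412). Of 18 other RNA-binding proteins tested, 0 passed the limma test, with 1 at an unadjusted p under 0.05 and 1 called by voom. Among them were Ybx1, at 367 ± 9.75 and 376 ± 7.47 FPKM (adjusted p = 0.578), and Hnrnpa1, at 235 ± 7.69 and 210 ± 13.4 FPKM (adjusted p = 0.1198). Hnrnpa1 was the 1 that voom called, as lower (log2 fold change -0.20, limma adjusted p = 0.00934). The median log2 fold changes of these lists were -0.02 and -0.01.

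Of 17 decapping and 5′ decay genes 2 fell (11.8%, against 4.64% of all tested genes) and 0 rose, both encoding subunits of the Lsm ring that binds deadenylated RNA. Lsm3 fell from 5.93 ± 0.334 to 4.27 ± 0.231 FPKM, a log2 fold change of -0.40 (SE 0.057, limma adjusted p = 0.00946). Lsm2 fell from 6.63 ± 0.640 to 4.82 ± 0.297 FPKM (log2 fold change -0.39, limma adjusted p = 0.0241), a call that 7 of 15 alternatives did not keep. The other subunit genes of the ring that binds deadenylated RNA, Lsm1, Lsm4, Lsm5, Lsm6 and Lsm7, did not pass (limma adjusted p = 0.214 to 0.866). Lsm2 and Lsm3 also belong to the nuclear Lsm ring of splicing. Of 22 exosome, SKI and Upf genes 1 fell (4.55%) and 0 rose. It was Dis3, the exosome nuclease gene, from 17.8 ± 0.628 to 14.8 ± 0.583 FPKM (log2 fold change -0.25, limma adjusted p = 0.0196), lost in 5 of 15 alternatives.

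The next list holds kinases, phosphatases, a protease and a ligase that act on the factors, with subunits, adaptors and related signalling genes. It was chosen with earlier results of these data known, so its share is a description. Of 19 tested members 4 rose (21.1%, against 4.6% of all tested genes) and 0 fell. Dusp1, the phosphatase that switches off p38 and so lets TTP act, rose from 20.3 ± 0.435 to 27.4 ± 1.75 FPKM, a log2 fold change of 0.41 (SE 0.051, limma adjusted p = 0.00589). Mapkapk2, which encodes MK2, the kinase that phosphorylates TTP, rose from 173 ± 1.496 to 203 ± 5.48 FPKM, a log2 fold change of 0.23 (SE 0.032, limma adjusted p = 0.00907). Ikbke, an IKK-related kinase gene, rose from 11.1 ± 0.291 to 14.3 ± 0.591 FPKM (log2 fold change 0.34, limma adjusted p = 0.00635), and these 3 kept their calls in all 15 alternatives. Irak4, of Toll-like receptor signalling, rose from 3.06 ± 0.0369 to 3.75 ± 0.0327 FPKM (log2 fold change 0.23, limma adjusted p = 0.0260), which 9 of 14 alternatives did not keep. The list median was a log2 fold change of 0.08.

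The last list holds transcripts known as targets of TTP, Regnase-1 or Roquin. Of 31 listed, 26 were tested, 11 rose (42.3%, against 4.6% of all tested genes) and 2 fell (7.69%, against 4.64%), with a median log2 fold change of 0.17. Many of them are also targets of NF-kB and other signals, and the list was written with the rise of several of them known. Lcn2, the lipocalin gene whose transcript Regnase-1 cleaves, rose from 56.6 ± 3.63 to 125 ± 3.57 FPKM, which is 2.21-fold (log2 fold change 1.13, SE 0.052, limma adjusted p = 0.000313). Il6, another Regnase-1 target, rose from 4.51 ± 0.208 to 13.9 ± 1.26 FPKM, a log2 fold change of 1.43 (limma adjusted p = 0.000362). Ifnb1, which encodes interferon-beta, rose from 8.22 ± 0.643 to 27.1 ± 0.735 FPKM, a log2 fold change of 1.61 (limma adjusted p = 0.000146). Plau, which encodes urokinase, fell from 253 ± 10.0 to 143 ± 1.38 FPKM, a log2 fold change of -0.82 (limma adjusted p = 0.000313). Its 3′ UTR of 935 bases held 2 AU-rich pentamers (ATTTA). Lcn2, Il6, Ifnb1 and Plau each held 0 copies of the nonamer printed above.

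Named after their values were seen, the other targets that rose were Csf2 (log2 fold change 1.17), Ccl2 (0.63), Cxcl3 (0.47), Dusp1 as above, Ptgs2 (0.38), Pim1 (0.38), Nfkbiz (0.26) and Rel (0.21). Tfrc, the transferrin receptor gene, named in the same way, fell by 0.28 on the log2 scale. The call of Rel (limma adjusted p = 0.0240) was lost in 7 of 15 alternatives, and those of Ptgs2 and Tfrc in 1 each. Tnf and Cxcl2, whose AU-rich sites are printed above, were abundant and did not pass: Tnf stood at 467 ± 2.58 and 519 ± 24.2 FPKM (limma adjusted p = 0.0751) and Cxcl2 at 1846 ± 134 and 2039 ± 77.2 FPKM (limma adjusted p = 0.212), control before Fbxw11. Csf2, with the same kind of site, rose from 5.89 ± 1.54 to 14.3 ± 1.94 FPKM (2.42-fold, limma adjusted p = 0.0122).

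**Figure D4:**
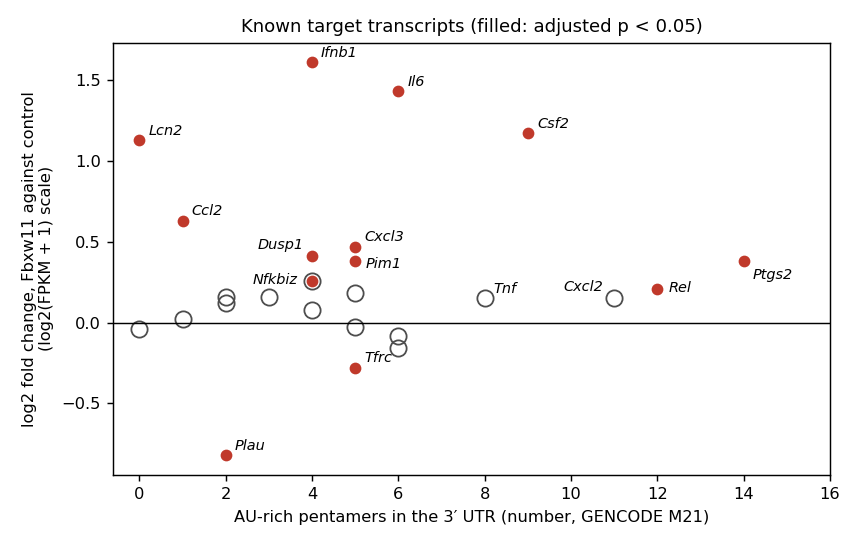
Change of the 26 tested target transcripts as a difference in log2(FPKM + 1), Fbxw11 minus control, by the number of AU-rich pentamers in the 3′ UTR; filled points passed at an adjusted p under 0.05. Rises are found from 0 pentamers (Lcn2) to 14 (Ptgs2), and the open circle around Nfkbiz is Fos, at the same place.

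The presence of the nonamer was set beside the changes, as a description. Of 10 tested targets with at least 1 nonamer 6 rose and 0 fell (median log2 fold change 0.32), and of 16 without one 5 rose and 2 fell (median 0.14). Over the whole table, 671 tested genes held at least 1 nonamer, of which 45 rose (6.71%) and 33 fell (4.92%), with a median 3′ UTR of 2102 bases. Within these, 139 genes held at least 2 nonamers, of which 12 rose (8.63%) and 8 fell (5.76%), with a median 3′ UTR of 2670 bases. Of 8804 tested genes with 0 nonamers 425 rose (4.83%) and 452 fell (5.13%), with a median of 875 bases. The count of 8 falls among genes with at least 2 nonamers was 3 without control library 1, 4 without control library 2, 5 without any other single library and 14 with voom.

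**Figure D5:**
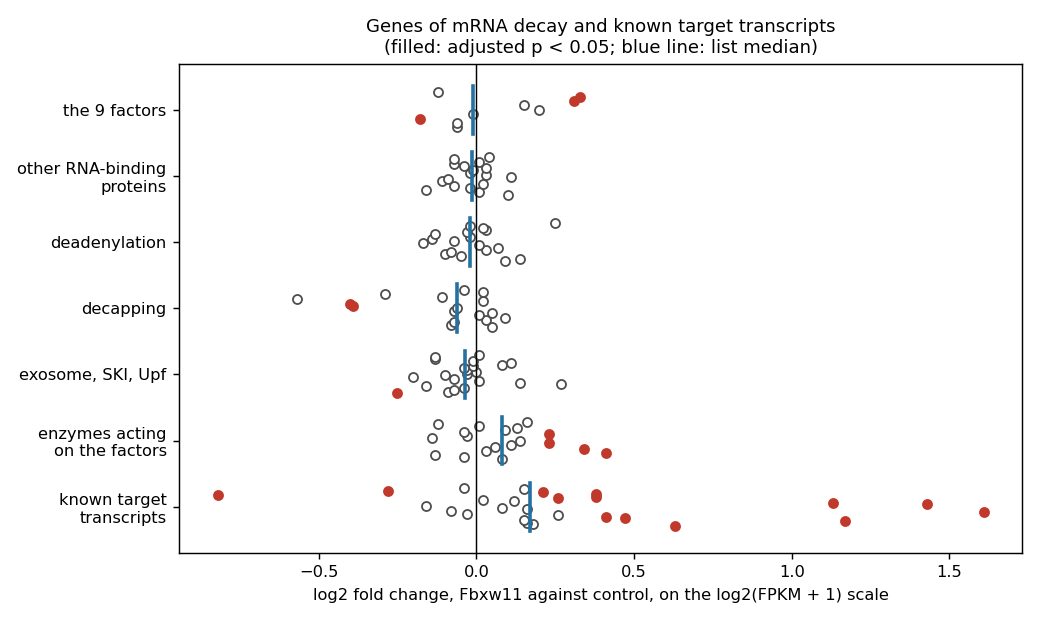
Change, as a difference in log2(FPKM + 1), Fbxw11 minus control, of the 9 factors and of the tested genes of 6 lists of the decay pathway, filled where the adjusted p is under 0.05, with a blue line at each list's median. The factors and the decay machinery lie mostly within 0.4 of 0, and the known target transcripts spread from -0.82 to 1.61.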

How the data were processed

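Per the labels' protocols, total RNA was purified on columns from sorted cells and libraries followed standard Illumina protocols. The authors deposited FPKM per Ensembl gene with gene lengths. Per the submitters' processing notes the genome was mm10. Aligner, counter, strand and filters: not given in the sources used here. In the table, 0 of the 9 genes have the start and end of GENCODE M21 (GRCm38), though all 9 have the same span, so the build of its coordinates is not settled and positions printed here are from the references. FPKM times gene length was a whole multiple of 1 step per library (100% of values within 0.02 reads, for values under 20000 reads), which gave reads per gene. The library size the authors divided by was 1.014 to 1.018 times the read sum in control and 0.987 to 0.993 times in Fbxw11 libraries, which raised FPKM in the latter. Reads are not independent molecules.

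Values were analysed as log2(FPKM + 1), a scale that understates changes of low genes, keeping genes that averaged 1 FPKM or more over the 6 libraries (R 4.3.3; limma 3.58.1, moderated with a mean-variance trend, two-sided, Benjamini-Hochberg adjustment over 10898 genes, threshold 0.05). "Rose" and "fell" mean past it. The procedure was also run on simulated data, in which each changed gene moved by more than any called factor did. That run therefore does not show how well changes of the size of the factors' are found. Factors and lists were chosen with earlier results of these data known. Named genes are all 9 factors and, per list, up to 4 passing with the smallest p, filled to 2 with the most abundant; 1 that the rule names is not reported here. Skp1a was matched through its GENCODE identifier, all others by symbol. Motifs and the 3′ UTR of the transcript with the longest coding sequence were added after the data were seen. Alternatives were another pseudocount, 2 filters, 2 scalings, voom, no trend, a replicate block and leaving out libraries.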

Additional observations from a re-analysis of the deposited data

How the results depend on the processing

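The 3 calls among the factors kept their direction in all alternatives but were close to the threshold. Without a filter on low values more genes are tested and 0 factors rose or fell (log2 fold change 0.31 for Zfp36, 0.33 for Zfp36l1 and -0.18 for Rc3h1). With library 3 of both groups left out, an alternative added after the data were seen, 1 factor rose (0.23 for Zfp36) and 0 fell. Zfp36l1 (0.25) and Rc3h1 (-0.19) lost their calls there. Without the variance trend Rc3h1 was lost (-0.18), so 0 fell, and on the TPM scale 2 fell, as Zfp36l2 passed (-0.17). With 1 library left out, 0 to 1 factors rose and 0 fell, with log2 fold changes of 0.25 to 0.35 for Zfp36, 0.28 to 0.38 for Zfp36l1, -0.21 to -0.16 for Rc3h1 and -0.06 to 0.04 for Rc3h2, whose sign turned to 0.004 without control library 1 and 0.04 without Fbxw11 library 1. Rc3h2 was below a filter of 5 FPKM and Irak4 too, so they have no value there.

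Same-numbered libraries correlated at 0.0361, 0.0405 and 0.189 in their deviations from the group means, so the numbers were not taken to pair them. With the replicate block 0 factors rose and 0 fell (0.31 for Zfp36, 0.33 for Zfp36l1, -0.18 for Rc3h1), 303 genes rose and 318 fell over the table, and 1 decapping gene was called.

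Over all genes, 289 rose and 307 fell without a filter, 1039 fell with voom, 336 fell without library 3 of both groups, and 190 to 418 rose and 219 to 383 fell with 1 library left out. Deadenylation genes called numbered 2 on the TPM scale, 3 with voom, 1 without library 3 of both groups and 0 to 2 with 1 library left out. Voom called 1 other RNA-binding protein and 3 exosome genes, and no filter left 1 decapping gene. With 1 library left out, 1 to 2 decapping genes and 0 to 1 exosome genes were called. The sign turned for Ybx1 (-0.01 on the TPM scale, -0.002 with voom). The causes of these differences between settings were not tested. The counts of called genes in the list of kinases and other regulators of the factors and among target transcripts stayed within 1.5 times in all alternatives.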
